A study of Homo sapiens with 6 samples.

Results

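The expression of 10 genes of the interleukin-1 and NF-kB response was followed in F36P, a human leukaemia cell line that grows with added cytokine and carries erythroid traits: the cytokine gene IL1B, the NF-kB subunit genes NFKB1, NFKB2, RELA and RELB, the inhibitor-family genes NFKBIA and BCL3, the feedback inhibitor gene TNFAIP3, and the target genes ICAM1 and SOD2. They were taken by symbol from a table of 16315 genes, and all 10 were in it. The choice was made with the sgHDAC7 and sgNT values known, so the values of these genes describe these 6 libraries and are no test; where calls of the fit across all genes are counted for them, nothing is read from the count. Of the 10, 9 reached a mean level of 1 CPM (the standard unit of read counts scaled to library depth) and entered the fit across 13841 genes; TNFAIP3 did not. In sgHDAC7 cells IL1B stood at 43.0%, BCL3 at 52.0%, ICAM1 at 57.8% and NFKB2 at 79.0% of their sgNT level, and SOD2 stood at 127%. For RELA, RELB, NFKB1 and NFKBIA the 2 groups of libraries overlapped.

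The study compared 3 libraries of cells given a guide RNA against HDAC7 (sgHDAC7, genotype labelled HDAC7 knockout) with 3 libraries of cells given a non-targeting guide (sgNT, genotype labelled WT), and its stated interest was erythroid differentiation. Both guides were delivered on plasmids with puromycin resistance, so both groups had been under puromycin at 1 µg/ml for 4 days. RNA came from the same number of cells in each sample, and polyadenylated RNA was sequenced in bulk. The labels name no single-cell clone, and they call the replicates biological without saying whether the cultures were grown apart, so p-values measure the spread between these libraries only. HDAC7 is a class IIa histone deacetylase; its CPM was 194, 239 and 246 in the sgHDAC7 libraries and 450, 460 and 462 in the sgNT libraries, a level at 49.5% of sgNT (edgeR log2 fold change -1.02 ± 0.09 SE, adjusted p = 0.00139; exact two-sided permutation p = 0.1, the smallest that 3 against 3 libraries allow). HDAC7 RNA was thus still measured in the cells labelled knockout, and the protein was not measured here.

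NF-kB is a family of dimeric transcription factors held in the cytoplasm by IkB inhibitors. Interleukin-1 beta, the product of IL1B, binds its receptor and, through MYD88 and the IRAK kinases, activates the IKK kinases, which mark IkB for destruction and release NF-kB into the nucleus. Among the genes that NF-kB then switches on are its own inhibitors NFKBIA and TNFAIP3, its own subunits NFKB1, NFKB2 and RELB, adhesion and survival genes such as ICAM1 and SOD2, and IL1B itself. In blood, IL1B is best known as a product of monocytes and macrophages, where the PU.1 and C/EBP factors also act on it.

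The sequences upstream of the RefSeq starts were examined because several of these genes are textbook examples of direct NF-kB regulation. RefSeq (GRCh38.p14) promoter entries were found for 9 of the 10 genes, giving 16 windows, and RELB was not matched. The 250 bases before each start were searched on both strands for the kappa-B consensus, for the 9-base form GGAATTTCC, which lies inside the consensus match wherever both are found, and for TTGCNNAA, a form bound by C/EBP factors. The stretches shown hold a match in the 2 inhibitor genes NFKBIA and TNFAIP3, in the subunit genes NFKB1 and NFKB2 and in the target ICAM1. IL1B, whose level differed most between the groups, is shown beside them. A gene can have several starts, so bases upstream of a RefSeq start can lie inside the gene as GENCODE 29 draws it. Exons of any gene on either strand were counted. All 30 bases shown for TNFAIP3 and ICAM1, 21 of 30 for NFKB1 and 11 of 30 for NFKB2 lie in GENCODE exons. GENCODE starts NFKB1 at chr4:102501329, the last base shown, so the other exon bases of that stretch belong to another entry. The NFKB2 window before position 102394578 held 3 kappa-B consensus matches and that before 102395705 held 2. Only the match nearest to 102395705 is shown. Capitals mark the match on the gene's own strand.
NFKBIA, chr14:35404750-35404999, minus strand, all 250 bases before the start: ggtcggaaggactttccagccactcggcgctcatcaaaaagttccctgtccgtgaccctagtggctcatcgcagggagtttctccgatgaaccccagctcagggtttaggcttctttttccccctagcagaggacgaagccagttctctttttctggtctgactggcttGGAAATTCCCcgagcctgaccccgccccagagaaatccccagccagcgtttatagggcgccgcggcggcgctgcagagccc
NFKB1, chr4:102501300-102501329, plus strand: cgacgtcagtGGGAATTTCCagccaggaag
NFKB2, chr10:102395674-102395703, plus strand: tggtattttcGGGACTTTCCtaagctgctc
TNFAIP3, chr6:137867188-137867217, plus strand, with 2 matches: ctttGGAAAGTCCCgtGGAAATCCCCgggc
ICAM1, chr19:10270924-10270953, plus strand: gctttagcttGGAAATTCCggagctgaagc
IL1B, chr2:112836904-112837029, minus strand, 250 to 125 bases before the start: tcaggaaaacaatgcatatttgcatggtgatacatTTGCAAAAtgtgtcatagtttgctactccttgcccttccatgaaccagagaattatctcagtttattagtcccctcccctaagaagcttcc

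A kappa-B consensus match was present in 5 of the 16 windows, those of NFKB1, NFKB2, NFKBIA and TNFAIP3, and in 9.96% of all 35116 windows of the same length. GGAATTTCC was present in 3 of the 16, for NFKB1, NFKBIA and ICAM1, and in 0.413% of all windows. TTGCNNAA was present in 1 of the 16, that of IL1B, from 215 to 208 bases before its start, and in 9.05% of all windows; some genes have several windows. No kappa-B consensus match was found in the windows of IL1B, ICAM1, BCL3, SOD2 or RELA. A match describes these letters and is neither a shown binding site nor a cause, and the absence of one concerns this window only.

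Before the values, 1 feature of the libraries is needed. Totals lay between 10039693 and 12521195 counts, so 3 counts corresponded to 0.240 to 0.299 CPM. In both groups the replicate 1 library stood apart: over the genes tested, the chi-square per degree of freedom between replicates 2 and 3 was 3.24 in sgHDAC7 and 3.53 in sgNT, and between replicate 1 and either of them 7.91 to 15.6. Each gene is therefore described for all libraries, and also as a log2 ratio within replicate 1 and within replicates 2 and 3, taken on their means. In bulk RNA, fewer cells of a type and less RNA per cell cannot be told apart.

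IL1B encodes interleukin-1 beta, the ligand of the set; the gene lies at chr2:112829751-112836903 on the minus strand (GRCh38, GENCODE 29). Its level, in CPM scaled by trimmed mean of M values (TMM), was 31.7, 29.3 and 28.7 in the sgHDAC7 libraries (29.9 ± 1.63 SD, n = 3) and 85.3, 64.3 and 58.8 in the sgNT libraries (69.5 ± 14.0 SD, n = 3). The groups did not overlap, the lowest sgNT library lay above the highest sgHDAC7 library, and the sgNT replicate 1 library was the highest of the 6. The sgHDAC7 mean stood at 43.0% of the sgNT mean, and the fitted log2 fold change was -1.22 ± 0.14 SE, a 2.32-fold lower level. Within replicate 1 the log2 ratio was -1.41, and within replicates 2 and 3 it was -1.07, so the larger ratio went with the high sgNT replicate 1 library. The fitted value ranged from -1.32 to -1.04 when single libraries were left out.

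**Figure D1:**
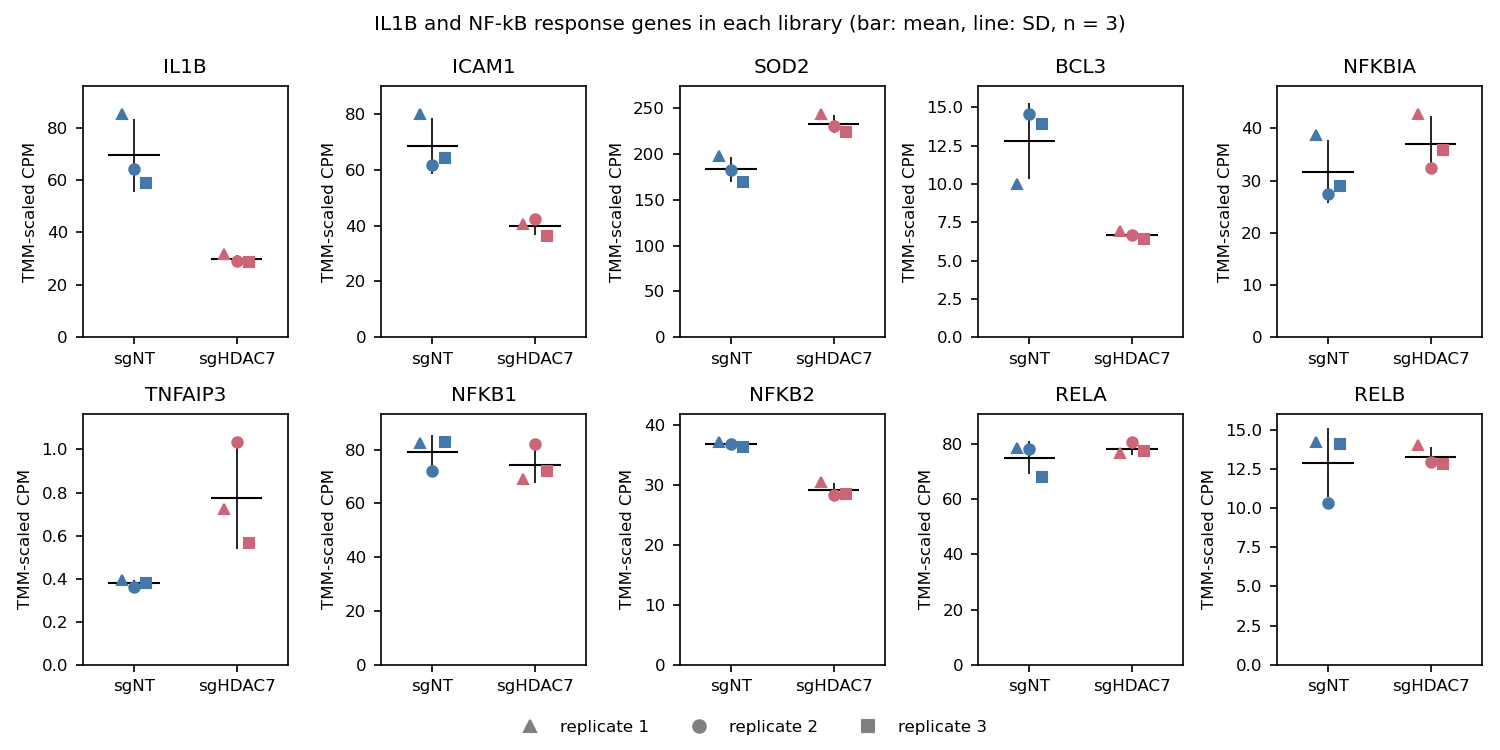
TMM-scaled CPM (vertical axes, each starting at 0) of the 10 genes in each of the 3 sgNT and 3 sgHDAC7 libraries; the marker shape gives the replicate number, the horizontal bar the group mean and the vertical line the SD. The groups of IL1B, ICAM1, BCL3, NFKB2, SOD2 and TNFAIP3 do not overlap, and those of NFKBIA, NFKB1, RELA and RELB do. TNFAIP3 is in the table through the group where it was higher, so nothing is read from its difference. Of all genes tested, 13.0% lay above without overlap and 12.2% below.

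RELA (chr11:65653596-65663094, minus strand) encodes p65, the main activating subunit of the canonical dimer. It was measured at 76.7, 80.8 and 77.3 CPM in sgHDAC7 (78.3 ± 2.20 SD, n = 3) and at 78.7, 78.0 and 68.0 CPM in sgNT (74.9 ± 5.96 SD, n = 3). The groups overlapped, and the log2 fold change of 0.06 ± 0.08 SE was smaller than its error. An antisense transcript overlaps RELA exons in the annotation, and whether the counting used strand is not given, so a few of these reads may belong to it.

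NFKB1 (chr4:102501329-102617302, plus strand) encodes the p105 precursor of p50, the partner of p65. Its level was 68.9, 82.2 and 72.2 CPM in sgHDAC7 (74.4 ± 6.91 SD, n = 3) and 82.3, 71.9 and 82.9 CPM in sgNT (79.1 ± 6.20 SD, n = 3). The highest sgHDAC7 library exceeded the lowest sgNT library, and the fitted difference was -0.09 ± 0.09 SE on the log2 scale. The pair of replicate 1 libraries differed by -0.25 and replicates 2 and 3 by less than 0.01 (-0.00372).

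NFKB2 (chr10:102394110-102402529, plus strand) encodes p100, the precursor of p52 in the non-canonical branch. It was the subunit gene whose groups were apart: 30.5, 28.4 and 28.5 CPM in sgHDAC7 (29.1 ± 1.20 SD, n = 3) against 37.3, 36.9 and 36.4 CPM in sgNT (36.9 ± 0.44 SD, n = 3). All sgHDAC7 libraries lay below all sgNT libraries, and both groups were tight. The log2 fold change was -0.34 ± 0.09 SE, with -0.28 within replicate 1 and -0.36 within replicates 2 and 3.

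RELB (chr19:45001430-45038198, plus strand) encodes the subunit that pairs with p52. Its CPM was 14.0, 12.9 and 12.8 in sgHDAC7 (13.2 ± 0.665 SD, n = 3) and 14.2, 10.3 and 14.1 in sgNT (12.9 ± 2.20 SD, n = 3). The sgNT replicate 2 library was the lowest of the 6 and the other sgNT libraries the highest, so the sgHDAC7 values fell inside the sgNT range. The fitted difference was 0.04 ± 0.15 SE. When single libraries were left out, the RELA difference ranged from -0.0012 to 0.10 and that of RELB from -0.09 to 0.12, so neither kept a direction.

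NFKBIA (chr14:35401511-35404749, minus strand) encodes IkB-alpha, the inhibitor whose own promoter carries the kappa-B match shown above. It was measured at 42.8, 32.4 and 35.8 CPM in sgHDAC7 (37.0 ± 5.29 SD, n = 3) and at 38.6, 27.5 and 28.98 CPM in sgNT (31.7 ± 6.05 SD, n = 3). The replicate 1 library was the highest of its group in both, by 0.33 in sgHDAC7 and 0.45 in sgNT on the log2 scale over the mean of the other two, and this was larger than the fitted difference of 0.22 ± 0.15 SE between the groups. The groups overlapped because sgNT replicate 1 lay above sgHDAC7 replicates 2 and 3. The log2 ratio was 0.14 within replicate 1 and 0.27 within replicates 2 and 3.

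BCL3 (chr19:44747705-44760044, plus strand) encodes an atypical, nuclear IkB protein that binds p50 and p52 dimers and can turn them into activators. Its CPM was 6.93, 6.65 and 6.39 in sgHDAC7 (6.66 ± 0.27 SD, n = 3) and 9.98, 14.6 and 13.9 in sgNT (12.8 ± 2.47 SD, n = 3). Every sgHDAC7 library lay below every sgNT library, and sgNT replicate 1 was the sgNT library nearest to them. The mean stood at 52.0% of sgNT, and the log2 fold change was -0.94 ± 0.18 SE, a 1.92-fold lower level. Here the replicates differed in the opposite way to IL1B: within replicate 1 the log2 ratio was -0.50, and within replicates 2 and 3 it was -1.07.

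TNFAIP3 (chr6:137867188-137883312, plus strand) encodes A20, the ubiquitin-editing enzyme that shuts the pathway off and a standard early NF-kB target. Few reads came from it in these cells: 9, 12 and 7 counts in sgHDAC7 and 4 in each sgNT library, or 0.78 ± 0.24 CPM against 0.38 ± 0.02 CPM (SD, n = 3). Every gene of the table exceeded 0.5 CPM in at least 2 libraries, and TNFAIP3 did so in the sgHDAC7 libraries only. It is thus in the table through the group where it was higher, and nothing is read from that difference.

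ICAM1 (chr19:10270835-10286615, plus strand) encodes the adhesion receptor that leukocyte integrins bind, and it is a widely used read-out of NF-kB activity. Its CPM was 40.7, 42.2 and 36.1 in sgHDAC7 (39.7 ± 3.19 SD, n = 3) and 80.0, 61.7 and 64.1 in sgNT (68.6 ± 9.98 SD, n = 3). As for IL1B, the groups did not overlap and sgNT replicate 1 was the highest library. The sgHDAC7 mean stood at 57.8% of the sgNT mean, and the log2 fold change was -0.79 ± 0.11 SE, a 1.73-fold lower level. Within replicate 1 the log2 ratio was -0.97, and within replicates 2 and 3 it was -0.68. Antisense transcripts overlap ICAM1 exons, with the same limit on strand as for RELA.

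SOD2 (chr6:159669057-159745186, minus strand) encodes the mitochondrial manganese superoxide dismutase, a protective NF-kB target with other regulators besides. Its groups lay in the opposite order to those of ICAM1: 244, 231 and 224 CPM in sgHDAC7 (233 ± 10.1 SD, n = 3) against 197, 182 and 170 CPM in sgNT (183 ± 13.8 SD, n = 3). All sgHDAC7 libraries lay above all sgNT libraries. The mean stood at 127% of sgNT, and the log2 fold change was 0.35 ± 0.07 SE, with 0.30 within replicate 1 and 0.37 within replicates 2 and 3.

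**Figure D2:**
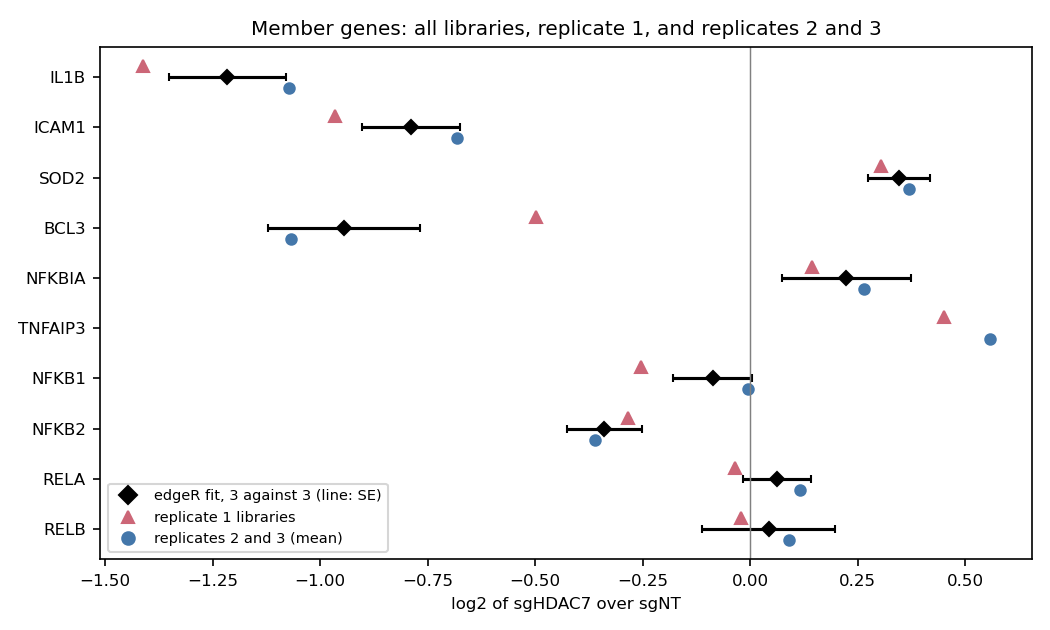
Log2 of sgHDAC7 over sgNT (horizontal axis) for each gene: diamonds are the edgeR fit over all 6 libraries with its SE, triangles the replicate 1 libraries, and circles the means of replicates 2 and 3; TNFAIP3 has no fitted value. The ratio of IL1B is larger in size between the replicate 1 libraries (-1.41) than between replicates 2 and 3 (-1.07), that of BCL3 is smaller (-0.50 and -1.07), and SOD2 lies to the right of 0 in each.

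With edgeR at an adjusted p under 0.05, 1 of the 9 genes fitted was called higher (SOD2) and 3 lower (IL1B, ICAM1 and BCL3), beside 1.16% of all genes tested called higher and 1.70% lower (2.86% in either direction). Since these genes were chosen from the same contrast, nothing is read from those counts. With a term for replicate 1 in the fit, NFKB2 joined the genes called lower, beside 12.6% of all genes called in either direction. The groups did not overlap for 5 of the 9 genes, 1 above and 4 below, beside 13.0% of all genes above and 12.2% below. The median log2 fold change of the 9 was -0.09, and that of all genes tested -0.0016.

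Single libraries changed some of these calls. The ICAM1 call was lost when either sgHDAC7 replicate 2 or sgHDAC7 replicate 3 was left out, and BCL3 and SOD2 were called in 1 of the 6 fits that left out a library, the fit without sgNT replicate 1. IL1B was called in each of the 6, which adds no support, since the gene was chosen on these values. The direction of these 4 genes was the same in all 6, with BCL3 between -1.09 and -0.84, ICAM1 between -0.86 and -0.66, and SOD2 between 0.30 and 0.40.

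Levels of different genes were compared per length, as CPM per kilobase of merged coding-transcript exons in GENCODE 29. In sgNT cells, at the lengths used, IL1B had the highest level of the set, 42.6 ± 8.57 CPM per kb (SD, n = 3). Its libraries (36.1 to 52.3) did not overlap those of any other member. RELA (22.1 ± 1.76), ICAM1 (21.1 ± 3.07) and NFKBIA (16.7 ± 3.18) followed, and neighbours in that order overlapped. NFKB1 stood at 14.3 ± 1.12, SOD2 at 11.4 ± 0.86 and NFKB2 at 10.01 ± 0.12 CPM per kb. BCL3 (6.28 ± 1.21) and RELB (5.60 ± 0.96) overlapped, and TNFAIP3 was far below at 0.080 ± 0.004. The first rank of IL1B rests on the length taken for SOD2, 16.01 kb from 1 of 2 GENCODE entries. Before division by length SOD2 stood at 183 CPM and IL1B at 69.5 CPM in sgNT, so a shorter SOD2 length could place SOD2 first.

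In sgHDAC7 cells the order differed. IL1B stood at 18.3 ± 1.00 CPM per kb (SD, n = 3), below RELA (23.1 ± 0.65) and inside the range of NFKBIA, whose libraries spread from 17.0 to 22.5. ICAM1, level with RELA in sgNT, stood at 12.2 ± 0.98, below SOD2 at 14.5 ± 0.63. BCL3 (3.27 ± 0.13) lay below RELB (5.76 ± 0.29), where the 2 genes had overlapped in sgNT. The length of SOD2 is uncertain, because GENCODE holds 2 entries of that symbol and the annotation used for counting is not given in the sources used here, so its place in the order is the least sure.

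**Figure D3:**
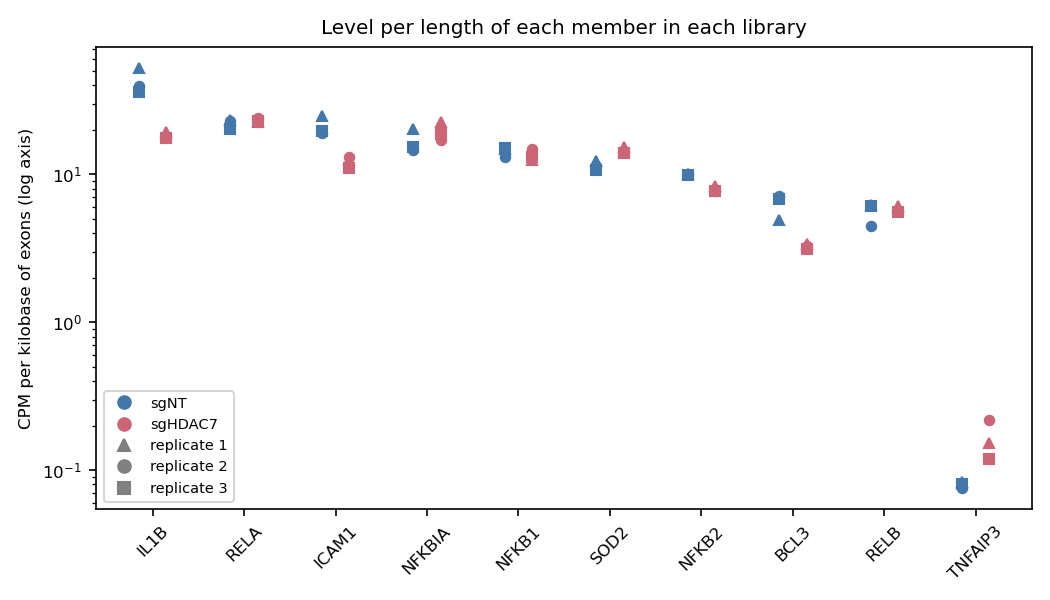
CPM per kilobase of exons (vertical log axis) of the 10 genes in the 3 sgNT (blue) and 3 sgHDAC7 (red) libraries, with marker shape for the replicate number. With SOD2 taken at 16.01 kb, a length that is uncertain, IL1B is the highest gene in sgNT (36.1 to 52.3). In sgHDAC7 it lies below RELA and inside the range of NFKBIA (17.0 to 22.5), while TNFAIP3 is the lowest in both groups.

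By Pearson correlation of log2(CPM + 0.5) over the 6 libraries, among 10911 genes with a mean of at least 5 CPM, the genes most like IL1B were LAPTM4B (r = 0.994), SPART (r = 0.994), EGFL7 (r = 0.994), RASSF3 (r = 0.993) and HSD17B7 (r = 0.993). These coefficients describe 6 points that share depth and group, and 139 genes had an r over 0.95. All 5 had smaller differences than IL1B, with log2 fold changes from -0.34 for EGFL7 to -0.21 for RASSF3.

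The rest of the pathway was taken from 11 lists of 136 genes other than these 10, of which 105 were in the table and 96 were tested. These lists too were chosen with earlier results of these data known. Their counts therefore describe these libraries and are no test of the pathway. IRAK1 rose and TNFRSF1A, PELI1, TLR4, CFLAR and TNFAIP8 fell (1 higher and 5 lower, 90 not called, edgeR adjusted p under 0.05), beside 1.16% of all genes tested called higher and 1.70% lower; the median log2 fold change of the 96 was -0.03. With the replicate 1 term the counts were 4 higher and 16 lower, beside 5.78% and 6.81% of all genes, and with DESeq2 2 higher and 9 lower, beside 2.35% and 3.39% of the genes it gave an adjusted p. The 4 called higher with the replicate 1 term were IRAK1 (log2 fold change 0.34, edgeR adjusted p = 0.00145), MYD88 (0.28, 0.0430), FTH1 (0.40, 0.0102) and SQSTM1 (0.25, 0.0150). For the lists that follow, 19.2% of all genes tested had an unadjusted edgeR p under 0.05, and DESeq2 called 5.74% in either direction. Without sgNT replicate 1 the edgeR counts for the 96 genes were 4 higher and 11 lower, and without sgHDAC7 replicate 2 or sgHDAC7 replicate 3 they were 0 and 0. Without sgNT replicate 2 or sgNT replicate 3 they were 0 higher and 1 lower. The 72 tested signalling genes had a median of 0.0023 and the 24 tested NF-kB targets a median of -0.16.

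Upstream of NF-kB, 4 genes were called. TLR4, the lipopolysaccharide receptor, fell from 8.90 ± 0.655 to 5.02 ± 0.67 CPM (SD, n = 3; adjusted p = 0.0426), and TNFRSF1A, the main TNF receptor, fell from 148 ± 10.5 to 105 ± 7.93 CPM (adjusted p = 0.0202). PELI1, a ubiquitin ligase acting on IRAK proteins, fell from 16.2 ± 2.02 to 9.46 ± 0.42 CPM (adjusted p = 0.0267). IRAK1, the kinase that links the IL-1 receptor to the pathway, rose from 250 ± 5.93 to 315 ± 6.20 CPM (adjusted p = 0.0226). The groups of these 4 genes did not overlap, beside 13.0% of all genes tested above and 12.2% below. The 4 were picked by their calls on the same libraries, so this adds no support. Of the 6 fits that left out 1 library, IRAK1 and TLR4 kept their call in 1, the fit without sgNT replicate 1, and TNFRSF1A and PELI1 in 2, those without a replicate 1 library.

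For the receptor of interleukin-1 itself the data were limited: IL1R1, IL1RN and IL1A were not analysed here. IL1RAP, its co-receptor, was at 37.2 ± 4.99 CPM in sgHDAC7 and 45.8 ± 5.04 in sgNT (SD, n = 3), with overlapping groups (adjusted p = 0.209; 0.0229 with the replicate 1 term). IL18, the other inflammasome-processed cytokine, was at 12.3 and 12.4 CPM. Of the inflammasome genes, edgeR and limma called 0 of 10 and DESeq2 2, with 4 at an unadjusted p under 0.05; PYCARD, its adapter, had a log2 fold change of -0.01 ± 0.17 SE.

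The remaining subunit and inhibitor genes resembled RELA and NFKBIA in not being called. REL, the fifth subunit gene, had -0.16 ± 0.14 SE (adjusted p = 0.572). Of the 4 other IkB genes, 0 were called by edgeR, limma or DESeq2 and 0 had an unadjusted p under 0.05; NFKBIZ had -0.39 ± 0.17 SE (adjusted p = 0.261), NFKBIE -0.23 ± 0.15 and NFKBIB 0.03 ± 0.08. Of the 7 IKK kinase genes 0 were called by any of the 3 tools, and 2 had an unadjusted p under 0.05; with the replicate 1 term IKBKE was called lower (adjusted p = 0.0318). CHUK and IKBKB, the catalytic subunits, had -0.03 and -0.04, and IKBKG, the regulatory subunit, 0.08.

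Of the inhibitors that work beside TNFAIP3, 0 of 13 were called by edgeR or limma and 1 by DESeq2, with 3 at an unadjusted p under 0.05. CYLD, a deubiquitinase, was at 18.6 ± 1.07 CPM in sgHDAC7 and 25.7 ± 1.05 in sgNT (SD, n = 3; adjusted p = 0.0516, 0.00936 with the replicate 1 term), and TNIP1, which binds A20, had -0.05 ± 0.07 SE. Among the NF-kB targets, TNFAIP8, a regulator of cell survival, fell from 23.1 ± 2.07 to 11.4 ± 0.68 CPM (adjusted p = 0.0055), and CFLAR, which blocks caspase-8, fell from 138 ± 11.6 to 102 ± 1.56 CPM (adjusted p = 0.0226). Like ICAM1, both were lower in every sgHDAC7 library, which adds no support, since both were picked by their calls on these libraries. TNFAIP8 lost its call without sgHDAC7 replicate 2 or sgHDAC7 replicate 3, as ICAM1 did, and CFLAR kept its call in the 2 fits without a replicate 1 library. Of the 24 tested targets 9 had an unadjusted edgeR p under 0.05 (37.5%, beside 19.2% of all genes tested). The groups did not overlap for 2 targets above and 6 below, beside 13.0% and 12.2% of all genes. The 2 above were FTH1 (log2 fold change 0.39 ± 0.10 SE, edgeR adjusted p = 0.0668) and SQSTM1 (0.25 ± 0.07 SE, 0.102). Of the 18 listed target cytokines and chemokines, 2 had enough counts to be tested, CCL4 and CSF1; neither was called by edgeR, limma or DESeq2, and neither had an unadjusted p under 0.05.

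**Figure D4:**
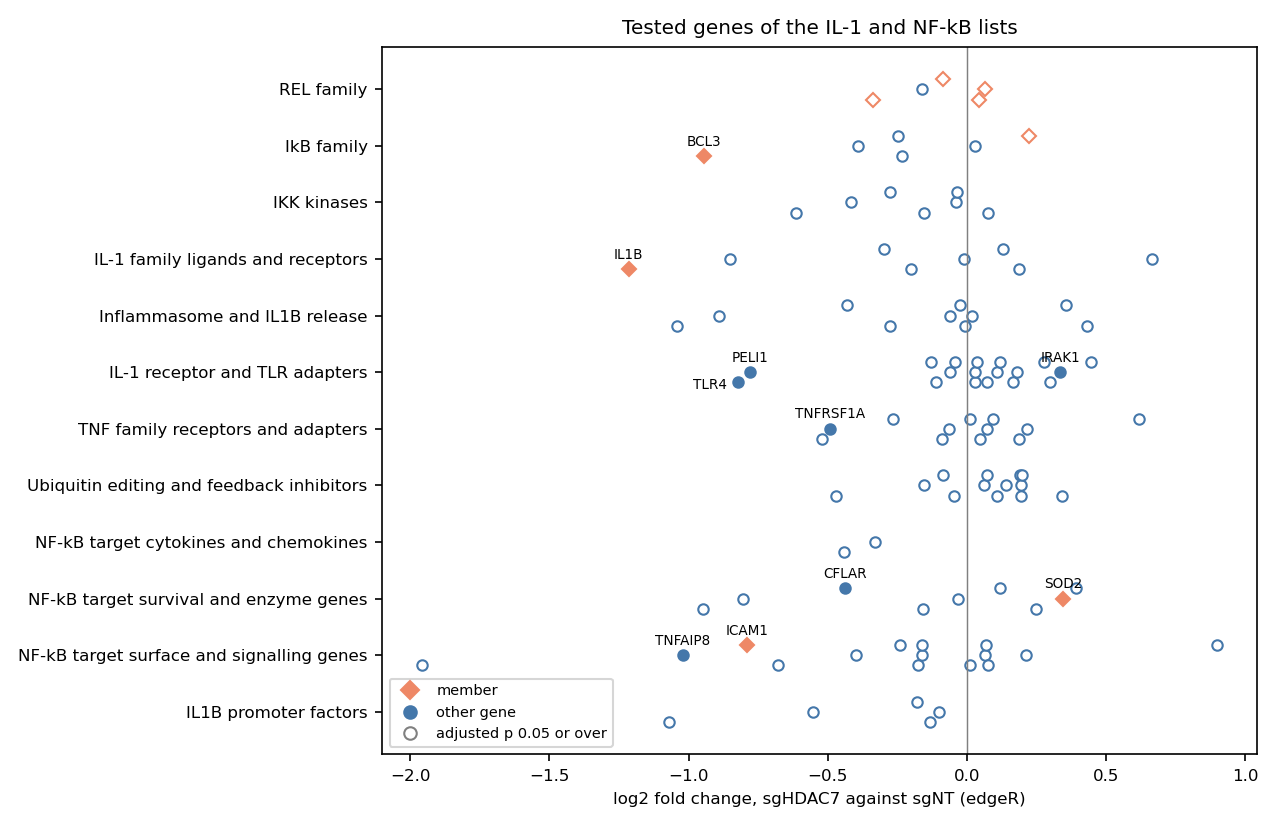
Log2 fold change of sgHDAC7 against sgNT (horizontal axis) of each tested gene, by list; diamonds are the genes described here, circles the other genes, and filled symbols passed an adjusted p of 0.05. IL1B (-1.22), TNFAIP8 (-1.02) and BCL3 (-0.94) lie farthest left among the filled symbols, and SOD2 (0.35) and IRAK1 (0.33) are the filled symbols to the right of 0.

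Factors known to act on the IL1B promoter were also read. CEBPB, a C/EBP factor, was at 17.6, 16.1 and 19.6 CPM in sgHDAC7 and at 21.4, 43.1 and 47.2 CPM in sgNT; the groups did not overlap, and the log2 fold change of -1.07 ± 0.25 SE missed the threshold (adjusted p = 0.0543) and passed it with the replicate 1 term (adjusted p = 0.00268). In sgNT replicate 1, where IL1B was highest, CEBPB was the lowest of the sgNT libraries, still above all 3 sgHDAC7 libraries. CEBPD was at 22.6 ± 2.58 against 33.1 ± 4.45 CPM (SD, n = 3; adjusted p = 0.0574, 0.0113 with the replicate 1 term), and SPI1, which encodes PU.1, at 132 ± 17.2 against 149 ± 6.98 CPM (adjusted p = 0.333). Of the 5 tested, 0 were called by edgeR or limma and 2 by DESeq2, with 2 at an unadjusted p under 0.05.

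Markers of other cell types were read beside IL1B, since monocytes express it strongly. Of 14 monocyte and macrophage markers, CD68, ITGAM and LYZ were in the table; CD14 and CSF1R, among others, were not analysed here. Their summed level was 126 to 131 CPM in sgHDAC7 and 159 to 165 CPM in sgNT, and ITGAM, an integrin subunit of myeloid cells, fell from 48.0 ± 11.8 to 25.02 ± 4.26 CPM (SD, n = 3; adjusted p = 0.0305), highest in sgNT replicate 1 as IL1B was. CD68 (17.3 ± 4.07 against 19.1 ± 1.51 CPM, adjusted p = 0.694) and LYZ (86.4 ± 8.90 against 96.0 ± 13.8 CPM, adjusted p = 0.51) were not called and their groups overlapped, so most of the gap in the summed level came from ITGAM. All 12 erythroid markers were present, and their summed level was 14875 to 20091 CPM in sgHDAC7 and 10624 to 15242 in sgNT, with overlapping ranges. Of 8 lymphoid markers 5 were in the table, summing to 33.2 to 36.2 CPM in sgHDAC7 and 37.8 to 42.8 in sgNT. Their part in the IL1B, ICAM1 and BCL3 levels was not tested.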

How the data were processed

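RNA was measured in bulk in 6 libraries of F36P cells, 3 sgHDAC7 and 3 sgNT. The values are whole read counts per gene, deposited by the authors in 1 table; its name calls them CPM, but 100% of the values were whole numbers with unequal totals. Every one of the 16315 genes exceeded 0.5 CPM in at least 2 libraries. The submitters' processing notes name hg38 and edgeR 3.32.1 without a role; which aligner, counter and annotation were used, and whether counting was stranded, is not given in the sources used here. Columns labelled NC were taken as sgNT, and 0 further columns of values were present.

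The members and lists were chosen with earlier results of these data known. Genes with a mean of at least 1 CPM (13841) were scaled by TMM and fitted with edgeR 4.0.16 in R 4.3.3 (quasi-likelihood test, group alone, two-sided, Benjamini-Hochberg over all genes tested, threshold 0.05); the SE is the log2 fold change divided by the square root of F. Named genes were the 10 members, a fixed panel of pathway genes, up to 4 called genes per list and the 5 genes most like IL1B; others were named after their values were seen. Alternatives were other scalings and filters, DESeq2 1.42.0, limma 3.58.1 on log2(CPM + 0.5) and log2(CPM + 2), terms for the replicate numbers, and single libraries left out. The scripts were tested on simulated data. Gene positions are from GENCODE 29 (GRCh38) and promoter sequences from RefSeq (GRCh38.p14). At these depths, with totals of 10039693 to 12521195 counts per library, 3 counts are 0.240 to 0.299 CPM.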

Additional observations from a re-analysis of the deposited data

How the results depend on the processing

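The count of other pathway genes called higher in sgHDAC7 was 1, and became 2 with DESeq2, 3 with the replicate block, 4 with the replicate 1 term and 4 on replicates 2 and 3 alone, with 0 to 4 when single libraries were left out. The count called lower was 5, and became 9 with DESeq2, 10 with the replicate block, 16 with the replicate 1 term and 15 on replicates 2 and 3 alone, with 0 to 11 when single libraries were left out; the cause was not tested. Of all genes tested, 7.21% were called with the replicate block and 20.6% on replicates 2 and 3 alone. The replicate numbers did not meet the rule for pairing (correlations of same-numbered deviations 0.303, 0.107 and 0.0968), and sgHDAC7 replicates 2 and 3 each correlated better with the other's number, so the block is given here only. Among the called genes, HDAC7 kept its call without each library (-1.08 to -0.92). TNFAIP8 lost its call without sgHDAC7 replicate 2 or 3 (highest adjusted p = 0.0568), TNFRSF1A, PELI1 and CFLAR without replicate 2 or 3 of either group (highest 0.126, 0.139 and 0.127), and IRAK1 and TLR4 in all omissions but sgNT replicate 1 (highest 0.127 and 0.186). Directions turned only among genes near 0 when single libraries were left out: RELA (-0.0012 to 0.10), RELB (-0.094 to 0.12), NFKBIB (-0.015 to 0.070), CHUK (-0.13 to 0.029, and 0.039 on replicates 2 and 3 alone), IKBKB (-0.081 to 0.016), IL18 (-0.059 to 0.045) and PYCARD (-0.16 to 0.14). Over the named genes and the counts of members, 465 values kept both their direction and their call, or were counts that did not move. A further 21 were newly called and 36 no longer called with the direction kept, 7 were counts that moved and 15 changed direction. At 0.240 to 0.299 CPM for 3 counts, TNFAIP3 is near the limit of what these libraries resolve.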

Other observations

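The genes beside the 10 on the chromosome were read as well, taking the nearest tested coding gene on each side (20 genes). CLPTM1, 8.1 kb from RELB, was the only one of the 20 that edgeR called at an adjusted p under 0.05 (2.86% of all genes were): it rose from 171 to 217 CPM (log2 fold change 0.35 ± 0.08 SE, n = 3 libraries per group, adjusted p = 0.0493), beside a RELB difference of 0.04 ± 0.15 SE. The 2 genes beside IL1B were not called: CKAP2L, 65.1 kb away, had -0.30 ± 0.08 SE (adjusted p = 0.0761; 0.0114 with the replicate 1 term) and PSD4, 320.4 kb away, 0.11 ± 0.07 SE (adjusted p = 0.437). With the replicate 1 term ACAT2, 15.1 kb from SOD2, was also called (-0.26, adjusted p = 0.0171), in the direction opposite to SOD2. ICAM4, 0.4 kb beyond ICAM1 and a gene of the same family, had 0.13 ± 0.15 SE (adjusted p = 0.696), against -0.79 ± 0.11 SE for ICAM1.

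Among the 10 tested inflammasome genes, 4 were called lower once the replicate 1 term was in the fit, beside 6.81% of all genes, and were picked out after their values were seen. NLRP1, a sensor, was at 2.78 ± 2.06 CPM in sgHDAC7 and 5.77 ± 2.14 in sgNT (SD, n = 3), with replicate 1 high in both groups. NLRC4, a second sensor, was at 2.12 ± 0.51 against 3.94 ± 0.35 CPM. NEK7, which assists NLRP3, was at 22.8 ± 1.497 against 30.8 ± 1.96 CPM, and CARD8 at 126 ± 0.57 against 153 ± 7.04 CPM. Their edgeR adjusted p-values were 0.255, 0.108, 0.0614 and 0.0514 without that term and 0.0144, 0.0479, 0.0104 and 0.00856 with it.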
